A study of Homo sapiens with 12 samples.

Results

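The experiment described here is the addition of HS5 stroma to leukaemia cells that were under cytarabine. It was chosen by sample title and covers 6 of the 12 arrays of the series, 3 arrays of cells given Ara-C together with HS5 and 3 arrays of cells given Ara-C alone. The cells are labelled Reh, a widely used cell line from acute lymphoblastic leukaemia of B-cell precursors. HS5 is an established human stromal line made from bone marrow, and Ara-C (cytarabine) is a nucleoside analogue that blocks DNA synthesis after it has been phosphorylated inside the cell. In full, the 4 groups were Reh cells with HS5 under Ara-C for 48 h, Reh cells with HS, a stroma that the labels do not describe further, under Ara-C for 48 h, Reh cells under Ara-C alone for 48 h, and untreated Reh cells, with 3 arrays each. Each group held independent triplicates per the labels. Both stromal groups also carried Ara-C, so an effect of HS5 without the drug is not covered. The dose of Ara-C and the way in which Reh cells were separated from stroma at harvest are not given in the sources used here and HS5 stands for 1 stromal line.

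Stromal cells of the marrow feed leukaemia cells with cytokines, chemokines, matrix and direct contacts, and co-culture with them is a common model of how leukaemia cells live through chemotherapy. The type I interferon response starts when interferon binds its receptor on the cell surface. The kinases at the receptor then activate transcription factors of the STAT family, which bind DNA with IRF9 at a site called the interferon-stimulated response element and switch on many antiviral genes. Sensors of foreign or misplaced RNA and DNA belong to the same programme, both as its triggers and as its targets.

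Values are log2 intensities after background correction and quantile normalization, and a gene was called when its adjusted p in limma (Benjamini-Hochberg over the 11166 genes tested) was under 0.05. A probe counts as detected where its detection p was under 0.01. Between 13064 and 14898 of the 48800 probes were detected on an array, and the number of arrays limits the precision. Arrays with HS5 correlated with those of Ara-C alone at 0.991 to 0.992 across genes, against 0.963 to 0.967 with HS arrays and 0.946 to 0.949 with untreated arrays; genes are not independent replicates. The median raw signal was 65.4 to 65.9 on HS5 arrays and 70.5 to 70.9 on arrays of Ara-C alone, and its part in the results was not tested. All 12 arrays lay on 1 chip, each group in a block of 3 neighbouring places, which means that place on the chip and group cannot be told apart.

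The labelled cell type was set against defining markers. Among 8 defining B-lineage genes, CD79A, CD79B and IGLL1 were detected on all 12 arrays, and PAX5, VPREB1 and CD22 on none. EBF1, a transcription factor of early B cells, was detected on 0 of 3 HS5 arrays and on 3 of 3 arrays of Ara-C alone, HS and untreated cells. It averaged 5.41 with HS5 and 5.84 with Ara-C alone and was not called. Both means are near the lowest signal among detected probes, 5.61 to 5.94 on HS5 arrays and 5.61 to 5.76 on arrays of Ara-C alone. Genes of granulocyte precursors were also present, among them MPO, the myeloperoxidase gene, at 14.80 with HS5, 14.98 with Ara-C alone and 15.32 in untreated cells. The B-precursor identity that the label gives was therefore borne out by only some of its defining markers, and the cells are called Reh here because they are labelled so. Of 8 defining fibroblast genes, COL1A1, COL1A2, COL3A1, FN1, THY1, LUM and DCN were detected on none of the 12 arrays. SPARC, the eighth, was detected on all arrays with Ara-C and had a log2 difference of -0.16 between HS5 and Ara-C alone (SE 0.20, adjusted p = 0.783). The summed signal of 20 measured fibroblast markers ran from 31770 to 34660 with HS5 and from 31720 to 34830 with Ara-C alone. With HS it was 19710 to 21970, and in untreated cells 15690 to 18080. The sum was thus higher with Ara-C alone, a group without stroma, than in untreated cells, and the cause was not tested. Of the 20, 0 were called between HS5 and Ara-C alone, where 0.905% of all genes were. In bulk samples such as these, fewer cells of a type and less RNA per cell cannot be told apart.

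Few genes were called between HS5 and Ara-C alone. In all, 101 of 11166 genes were called (0.905%), 59 of them higher with HS5 (0.528%) and 42 lower (0.376%). At an unadjusted p under 0.05 there were 1503 genes, so a gene that was not called is not shown to be unchanged. Fitted changes were small, and 8 of the called rises and 3 of the called falls reached 2-fold. The median difference over all genes was -0.0047, and the genes lay between -0.311 and 0.311 on the log2 scale from the 5th to the 95th percentile. Fewer genes were called when any 1 of the 6 arrays was left out. The lowest count was 28 without the third Ara-C array, and it was 31 without the second Ara-C array, 32 without the first HS5 array, 40 without the third, 47 without the second and 50 without the first Ara-C array. The arrays of the 2 groups did not overlap for 2190 genes, 19.6% of those tested.

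**Figure D1:**
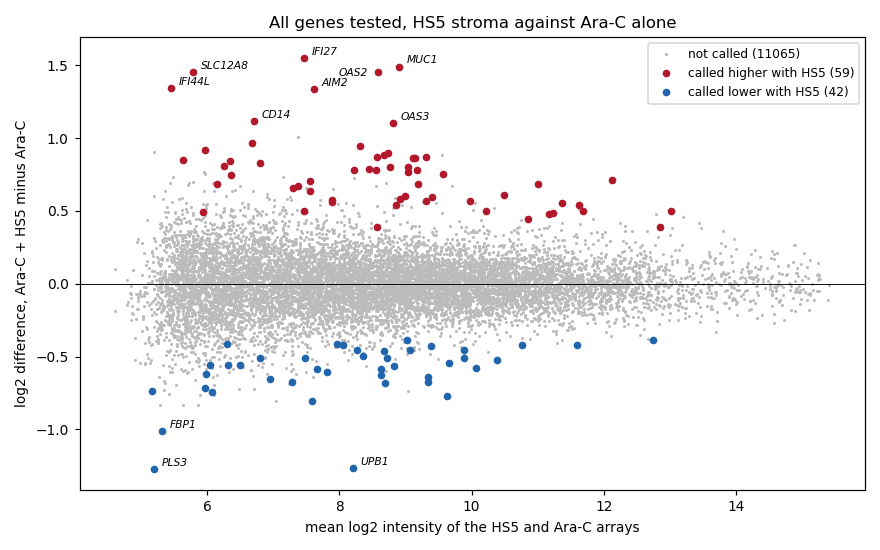
Log2 difference between Ara-C with HS5 and Ara-C alone (vertical axis) against the mean log2 intensity of these 6 arrays (horizontal axis) for the 11166 genes tested, each point a gene. The 59 genes called higher lie above 0 and the 42 called lower below it, most of them within 1 log2 unit, and the genes with a ranked change above 2-fold are named.

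Many of the called rises belonged to the type I interferon response. Of 57 listed genes 54 were tested, and 17 of these were called higher with HS5 and 0 lower, against 0.528% and 0.376% of all genes. The fitted difference was above 0 for 53 of the 54, with GBP2 as the exception. The median of the list was 0.49 on the log2 scale, or 0.47 with undetected groups at their bound, beside -0.0047 over all genes. For 40 of the 54 the arrays did not overlap, 39 higher with HS5 and 1 lower, where 19.6% of all genes had no overlap. Leaving out 1 array at a time gave 10 to 13 called genes of the list, 10 without the first HS5 array, the second Ara-C array or the third Ara-C array, and 11 without the third HS5 array. The median of the list then ran from 0.45 to 0.52.

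Within the list, antiviral effectors held the largest differences. IFI27, which codes for an interferon-induced membrane protein, had log2 intensities of 8.41, 8.03 and 8.27 with HS5, against 6.60, 6.86 and 6.59 with Ara-C alone. The groups are separated by more than 1 log2 unit, and the rise was 2.93-fold (log2 difference 1.55, SE 0.15, adjusted p = 0.000579). OAS2, an oligoadenylate synthetase that detects double-stranded RNA and thereby activates an RNA-cutting enzyme, had 9.56, 9.08 and 9.31 with HS5, against 8.03, 7.72 and 7.84 with Ara-C alone. It rose 2.75-fold (1.46, SE 0.15, adjusted p = 0.000579), and a second probe of the gene gave 1.08 (adjusted p over all probes 0.00623). Its relative OAS3 had 9.51, 9.27 and 9.29 with HS5, against 8.36, 8.49 and 7.92 with Ara-C alone. That rise was 2.15-fold (1.10, SE 0.15, adjusted p = 0.00528), with the lowest HS5 array above the highest array of Ara-C alone. OASL, a synthetase-like protein without that enzyme activity, had 7.11, 6.85 and 7.51 with HS5, against 6.43, 6.20 and 5.94 with Ara-C alone, a rise of 1.95-fold (adjusted p = 0.0222) that was no longer called without the second or the third Ara-C array or without the first or the third HS5 array (adjusted p over all alternatives up to 0.0925). IFI44L was detected on all 3 HS5 arrays, at 6.32, 6.01 and 6.07, and on 0 of 3 arrays of Ara-C alone, where its probe read 4.97, 4.62 and 4.76. It was at least 1.38-fold higher with HS5 (adjusted p = 0.000579).

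**Figure D2:**
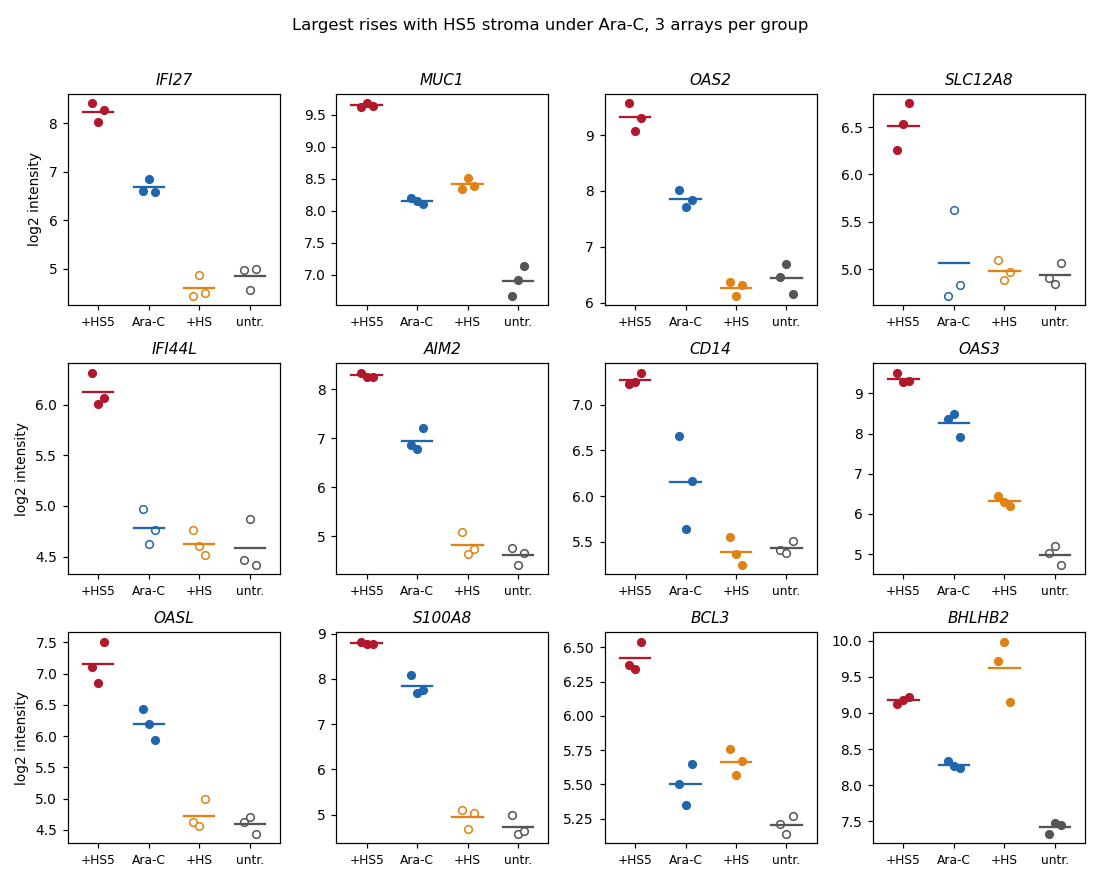
Log2 intensity of the 12 genes with the largest called rises (vertical axes, one scale per gene) on each of the 3 arrays of Ara-C with HS5, Ara-C alone, Ara-C with HS and untreated cells; bars are group means and open circles mark a group with no array above background. In each panel the HS5 arrays lie above those of Ara-C alone, from IFI27 with a log2 difference of 1.55 to BHLHB2 with 0.90.

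The other called effectors that were measured in both groups rose by 1.40-fold to 1.85-fold. RSAD2, which codes for viperin, an enzyme that makes a chain-terminating nucleotide, had 7.39, 7.03 and 7.21 with HS5, against 6.39, 6.31 and 6.45 with Ara-C alone (log2 difference 0.83, SE 0.12, adjusted p = 0.00676). IFIT1, which binds viral RNA ends, had 10.12, 9.85 and 9.86 with HS5, against 9.23, 9.26 and 9.07 with Ara-C alone (0.76, SE 0.12, adjusted p = 0.0105). These groups do not overlap for either gene. IFITM1 and IFITM3, membrane proteins that hinder virus entry, had differences of 0.54 (adjusted p = 0.0246) and 0.85 (adjusted p = 0.0298). IFITM3 was detected on 0 of 3 arrays of Ara-C alone and was at least 1.32-fold higher with HS5, and its near-identical family members can share signal on a probe. EPSTI1 rose by 0.89, PARP9 by 0.87, IFI35 by 0.68, XAF1 by 0.60 and SP110, a nuclear body protein, by 0.48 on the log2 scale. RSAD2, PARP9 and IFI35 kept their calls in all 13 alternatives. IFITM1 lost its call whichever single array was left out (adjusted p up to 0.0990), and IFITM3 in 7 of the 13 alternatives (up to 0.119), 5 of them single arrays left out. Calls were also lost in 8 alternatives for XAF1 (up to 0.137), 6 for SP110 (up to 0.0779), 5 for EPSTI1 (up to 0.113) and 2 for IFIT1 (up to 0.0582), among them in each case the fit without the third Ara-C array and the fit without the first HS5 array. ISG15, the ubiquitin-like modifier of the response, had 10.11, 9.63 and 10.22 with HS5, against 9.20, 8.95 and 9.17 with Ara-C alone, and its difference of 0.88 did not pass (SE 0.22, adjusted p = 0.0888). Neither did those of IFI44 (1.01, adjusted p = 0.0564), OAS1 (0.63, adjusted p = 0.0603) and IFIT3 (0.69, adjusted p = 0.0888), although their arrays did not overlap.

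Regulators and sensors of the pathway were called as well. IRF7, the factor that amplifies interferon production, had 11.43, 11.20 and 11.40 with HS5, against 10.68, 10.63 and 10.65 with Ara-C alone, a rise of 1.61-fold (log2 difference 0.69, SE 0.10, adjusted p = 0.00881). The groups are clearly apart, and a second probe gave 0.73. STAT2 (0.35, adjusted p = 0.0931) and IRF9 (0.50, adjusted p = 0.227), which relay the receptor signal, did not pass. DDX58, which codes for the RNA sensor RIG-I, had 8.70, 8.43 and 8.70 with HS5, against 8.07, 7.89 and 7.53 with Ara-C alone (0.78, SE 0.14, adjusted p = 0.0185). Its call was lost with the 6 arrays alone and without the second or the third Ara-C array or the first or the third HS5 array (adjusted p up to 0.0873). AIM2, a sensor of DNA in the cytosol that builds an inflammasome and stands on none of the lists, had 8.35, 8.26 and 8.26 with HS5, against 6.87, 6.78 and 7.21 with Ara-C alone. It rose 2.53-fold (1.34, SE 0.14, adjusted p = 0.000579), and the groups lie about 1 log2 unit apart. IFI16, a related DNA sensor, had a difference of 0.44 (adjusted p = 0.0570).

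The ligand and receptor genes themselves, picked after their values were seen, were not called. IFNB1, the interferon beta gene, had 6.93, 7.04 and 7.01 with HS5, against 6.62, 6.97 and 6.74 with Ara-C alone, a difference of 0.21 (SE 0.13, 95% confidence interval -0.06 to 0.49, adjusted p = 0.510). In untreated cells its probe was not detected and averaged 4.66. The receptor chains IFNAR1 (0.11, interval -0.12 to 0.33) and IFNAR2 (0.09, interval -0.18 to 0.37) and the receptor kinases JAK1 (-0.23, interval -0.50 to 0.04) and TYK2 (0.10, interval -0.09 to 0.30) had intervals that include 0. CXCL10, a chemokine and a classic target of interferons, had 9.09, 8.82 and 9.15 with HS5, against 9.18, 8.52 and 8.95 with Ara-C alone, and these arrays overlapped (0.14, SE 0.18, adjusted p = 0.801). The antiviral GTPases MX1 (0.26) and MX2 (0.05) were not called either.

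**Figure D3:**
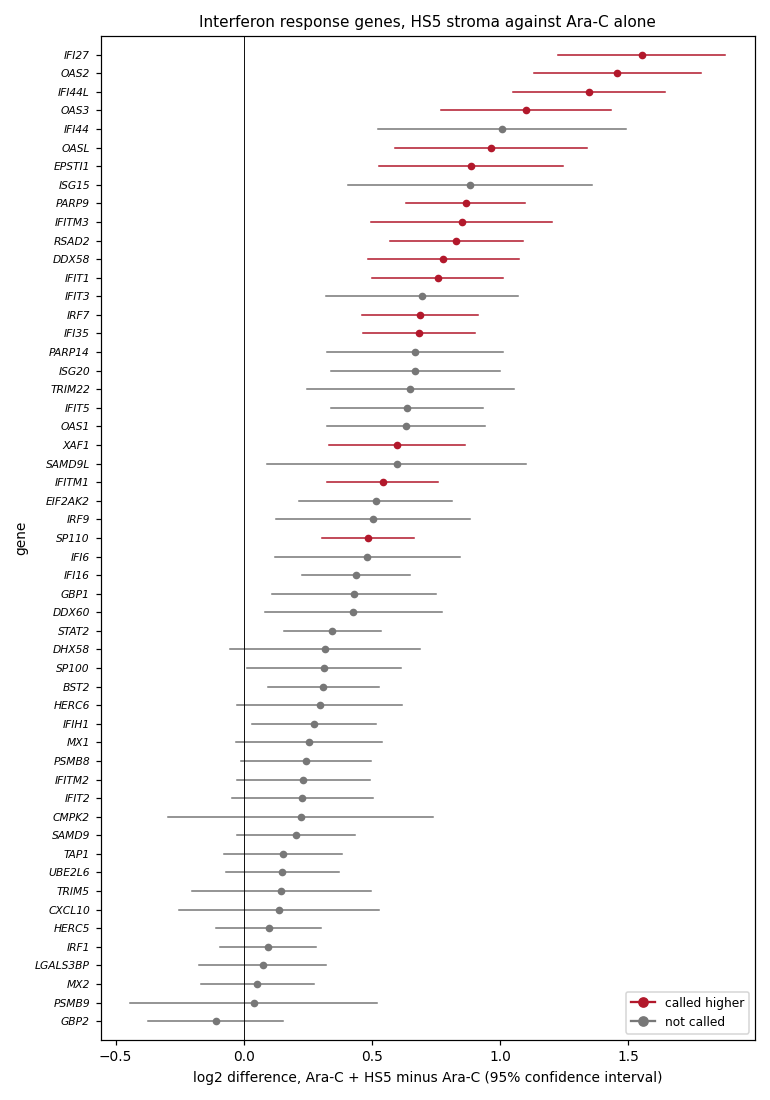
Log2 difference between Ara-C with HS5 and Ara-C alone (horizontal axis, points, with 95% confidence intervals as lines) for 53 of the 54 tested genes of the interferon response list, sorted by size. The called genes reach from 0.48 for SP110 to 1.55 for IFI27, and GBP2 at -0.11 is the gene below 0.

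The same genes can be set beside the other groups, which share arrays with the comparison above. For Ara-C alone against untreated cells the list had a median difference of 1.38, with IRF7 at 1.76. IFI27 and OAS3 were detected on 0 of 3 untreated arrays and were at least 1.89-fold and at least 5.63-fold higher with Ara-C alone, while IFI44L was detected on 0 arrays of either group. In direct comparison of HS5 with HS, both under Ara-C, 45 of the 54 were higher with HS5 and 4 lower (20.9% and 22.3% of all genes), with a median of 1.46. OAS2 averaged 9.32 ± 0.24 with HS5 and 6.27 ± 0.13 with HS (SD, n = 3 each), and IFIT1 9.94 ± 0.15 with HS5 and 6.69 ± 0.11 with HS. IFI27 and AIM2 were detected on 0 of 3 HS arrays and were at least 6.23-fold and at least 6.46-fold higher with HS5. Among the 4 members lower with HS5 than with HS were PSMB9 (-0.62) and PSMB8 (-0.48), subunits of the immunoproteasome.

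The promoters of the strongest rises were read for the letters of the interferon-stimulated response element, since their genes moved together. The search used GAAANNGAAA or its reverse complement TTTCNNTTTC, and for the STAT dimer site (GAS) the palindrome TTCNNNGAA, in windows from 250 bases before to 50 after the first listed start of each gene in RefSeq (GRCh38.p14). Of the 12 largest rises 10 had a window, OAS2 and OASL being without one, and 4 of these held the element. They are printed here from 250 bases upstream to the base before the start, 5′ to 3′ on the strand of the gene, with matches in capitals.
IFI27, chr14:94110486-94110735, plus strand: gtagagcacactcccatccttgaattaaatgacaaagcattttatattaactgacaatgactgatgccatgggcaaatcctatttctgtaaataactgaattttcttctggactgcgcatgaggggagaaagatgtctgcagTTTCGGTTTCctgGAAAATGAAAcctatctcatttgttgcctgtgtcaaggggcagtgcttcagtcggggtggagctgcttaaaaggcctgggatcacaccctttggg
IFI44L, chr1:78620198-78620447, plus strand: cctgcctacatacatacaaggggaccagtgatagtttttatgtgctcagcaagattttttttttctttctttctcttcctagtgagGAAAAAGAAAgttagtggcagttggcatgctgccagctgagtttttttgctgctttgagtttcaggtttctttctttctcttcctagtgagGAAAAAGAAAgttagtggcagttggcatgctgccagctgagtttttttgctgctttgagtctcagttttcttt
AIM2, chr1:159076767-159077016, minus strand: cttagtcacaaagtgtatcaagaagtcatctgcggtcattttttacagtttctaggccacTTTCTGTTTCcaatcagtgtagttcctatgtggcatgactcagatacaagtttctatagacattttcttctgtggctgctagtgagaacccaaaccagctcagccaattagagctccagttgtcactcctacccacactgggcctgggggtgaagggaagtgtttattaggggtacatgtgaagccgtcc
OAS3, chr12:112938224-112938473, plus strand: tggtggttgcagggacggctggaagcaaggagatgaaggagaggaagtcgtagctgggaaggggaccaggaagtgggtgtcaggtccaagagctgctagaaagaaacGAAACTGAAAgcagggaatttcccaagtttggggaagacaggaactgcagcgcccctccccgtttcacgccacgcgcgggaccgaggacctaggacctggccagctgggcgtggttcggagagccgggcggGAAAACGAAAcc

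IFI27 holds a pair of matches that begin 108 and 95 bases before the start, IFI44L matches at 164 and 73, OAS3 matches at 143 and 12, and AIM2 a single match at 190. Over all 27305 promoters listed, 3.65% held the element, and over the 8172 found for the genes tested 2.95%. It was in 12 of the 46 windows of genes called higher (26.1%) and in 1 of the 29 of genes called lower (3.45%), that of COL17A1. On the interferon list 26 of 44 windows held it (59.1%), called or not. Of the 33 windows of called rises outside that list 5 held it (15.2%), those of AIM2, PLSCR1, IL18RAP, AMICA1 and TNFSF10. The GAS letters were in 8 of the 46 windows of genes called higher (17.4%) and in 1 of the 29 of genes called lower (3.45%). Over all promoters the share was 7.88%, and over those of the genes tested 6.23%. Windows with both motifs overlapping numbered 3 among the called rises. A match is a description of letters and not a binding site.

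Outside the interferon list, MUC1 had the largest rise. MUC1, a mucin that spans the cell membrane, had 9.62, 9.67 and 9.64 with HS5, against 8.20, 8.15 and 8.11 with Ara-C alone. The arrays of each group almost coincide, and the rise was 2.81-fold (log2 difference 1.49, SE 0.11, adjusted p = 4.37e-05), with 1.70 for a second probe. SLC12A8, a member of the cation and chloride cotransporter family, was detected on all HS5 arrays, at 6.26, 6.53 and 6.75, and on 0 of 3 arrays of Ara-C alone, at 4.72, 5.63 and 4.83, and was at least 1.80-fold higher (adjusted p = 0.00401). BHLHB2, now called BHLHE40, a transcriptional repressor induced by many stresses, had 9.13, 9.19 and 9.22 with HS5, against 8.34, 8.26 and 8.24 with Ara-C alone (0.90, SE 0.16, adjusted p = 0.0185). Its adjusted p rose above 0.05, up to 0.0770, whichever single array was left out.

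Some myeloid genes were among the rises, while most measured myeloid markers were not called. CD14, the lipopolysaccharide co-receptor of monocytes, had 7.22, 7.24 and 7.35 with HS5, against 6.66, 5.64 and 6.17 with Ara-C alone (log2 difference 1.12, SE 0.19, adjusted p = 0.0159). Ara-C arrays spread by 1 log2 unit, and the call was lost without the third of them or without any 1 HS5 array (adjusted p up to 0.0723). S100A8 and S100A9 code for the 2 chains of calprotectin, a calcium-binding protein of granulocytes and monocytes. S100A8 had 8.82, 8.77 and 8.76 with HS5, against 8.09, 7.68 and 7.76 with Ara-C alone (0.94, SE 0.14, adjusted p = 0.00881), and S100A9 had 9.68, 9.41 and 9.23 with HS5, against 8.53, 8.71 and 8.67 with Ara-C alone (0.80, SE 0.16, adjusted p = 0.0413). The call of S100A8 was lost without the second or the third Ara-C array (adjusted p up to 0.0536). That of S100A9 was lost without any 1 of the 6 arrays, with the replicate number as a block and with no filter on dim probes (adjusted p up to 0.148). Of 28 measured granulocyte markers 3 were called higher and 0 lower, where 0.528% of all genes were called higher and 0.376% lower. The 3 were S100A8, S100A9 and the cystatin gene CST7 (0.48, call lost in 9 of 13 alternatives, adjusted p up to 0.143), and the list median was -0.10. The signals of the 28, summed without the log, came to 68050 to 70040 with HS5 and 72140 to 75850 with Ara-C alone. Bright genes such as MPO weigh most in this sum, so it does not stand for the 28 genes singly. Of 19 macrophage and monocyte markers 3 were called higher, CD14 and the S100 genes, and 0 lower, beside the same shares of all genes. Their sums were 14420 to 15440 with HS5 and 13750 to 15450 with Ara-C alone. The part of these markers in the results was not tested.

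Genes downstream of cytokine receptors gave a short list. BCL3, a nuclear partner of NF-kB that is also a STAT3 target, had 6.37, 6.34 and 6.54 with HS5, against 5.50, 5.35 and 5.65 with Ara-C alone, where 1 of 3 arrays detected it (log2 difference 0.92, SE 0.10, adjusted p = 0.000846). PIM1, a survival kinase induced by STAT3 and STAT5, had 8.90, 8.75 and 8.86 with HS5, against 8.23, 7.82 and 8.09 with Ara-C alone, a rise of 1.73-fold (0.79, SE 0.11, adjusted p = 0.00571). Both groups of arrays stood apart for each gene. They were the 2 called genes of 22 measured STAT3 and STAT5 targets, whose median was 0.10. Of all genes, 0.528% were called higher and 0.376% lower. STAT3 itself had a difference of 0.28 (adjusted p = 0.247). SOCS3 and the receptor chain gene IL6ST were detected on 0 of 12 arrays. Of 30 cytokines listed for HS-5 stroma 9 were tested and 0 called, among them CCL2 (0.57, SE 0.14, adjusted p = 0.0888) and VEGFA (0.41, SE 0.09, adjusted p = 0.0620). Of 17 measured haematopoietic cytokine receptors 0 were called, with CSF3R, the receptor for granulocyte growth factor, at 0.01 (95% confidence interval -0.25 to 0.27).

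Further called rises belonged to several processes with 1 or 2 genes each, where 0.528% of all genes were called higher. UPP1, the uridine phosphorylase, was the 1 called gene of 24 measured genes of cytarabine uptake and metabolism, with 9.37, 9.03 and 9.09 with HS5, against 8.43, 8.26 and 8.38 with Ara-C alone (log2 difference 0.80, SE 0.11, adjusted p = 0.00531). TNFSF10, the gene of the death ligand TRAIL, was the 1 called of 27 pro-apoptotic genes and had 9.34, 9.09 and 9.20 with HS5, against 8.67, 8.58 and 8.64 with Ara-C alone (0.58, SE 0.11, adjusted p = 0.0281). It is also known as an interferon target. HES1, a repressor downstream of Notch, rose by 0.69 (adjusted p = 0.0450) as the 1 called of 22 Notch genes. DDIT4, an inhibitor of mTOR signalling, and SLC2A3, a glucose transporter, rose by 0.61 (adjusted p = 0.0460) and 0.50 (adjusted p = 0.0298) and were the 2 called of 36 genes of glycolysis and the hypoxia response. UPP1 kept its call in all 13 alternatives. HES1 and DDIT4 lost theirs without any 1 of the 6 arrays and with the replicate number as a block (adjusted p up to 0.152 and 0.153). SLC2A3 lost its call in 7 alternatives (up to 0.119) and TNFSF10 in 6 (up to 0.118), the block and the fits without the second or the third Ara-C array or the first or the third HS5 array among them. The medians of these 4 lists were 0.04 for cytarabine metabolism, 0.03 for pro-apoptotic genes, -0.01 for Notch and 0.01 for glycolysis and hypoxia.

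The 42 falls shared fewer features. PLS3, which bundles actin filaments, was detected on 0 of 3 HS5 arrays, where its probe read 4.65, 4.57 and 4.45, and on 2 of 3 arrays of Ara-C alone, at 6.07, 5.82 and 5.59. It was at least 1.06-fold lower with HS5, and the fitted log2 difference was -1.27 (SE 0.15, adjusted p = 0.00165). UPB1, which carries out the last step of pyrimidine breakdown, had 7.59, 7.79 and 7.33 with HS5, against 8.97, 8.76 and 8.77 with Ara-C alone, a fall of 2.40-fold (log2 difference -1.26, SE 0.24, adjusted p = 0.0281). The arrays of UPB1 lie about 1 log2 unit apart, yet its adjusted p was above 0.05 when any 1 of the 6 arrays was left out (up to 0.113). FBP1, an enzyme of gluconeogenesis, was detected on 0 of 3 HS5 arrays and on 2 of 3 arrays of Ara-C alone, at least 1.05-fold lower (adjusted p = 0.00909). The call of FBP1 was lost without the third Ara-C array or the first HS5 array (adjusted p up to 0.0536).

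**Figure D4:**
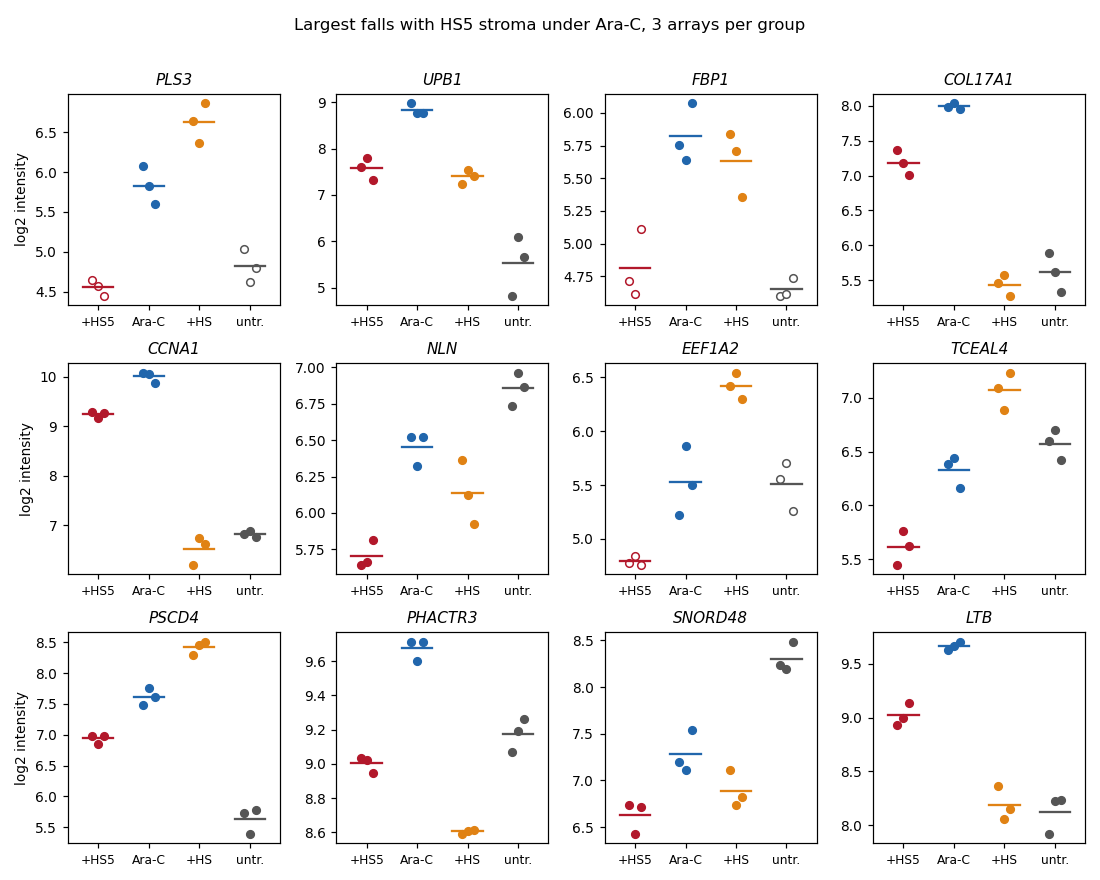
Log2 intensity of the 12 genes with the largest called falls (vertical axes, one scale per gene) on each of the 3 arrays of Ara-C with HS5, Ara-C alone, Ara-C with HS and untreated cells; bars are group means and open circles mark a group with no array above background. In each panel the HS5 arrays lie below those of Ara-C alone, from PLS3 with a log2 difference of -1.27 to LTB with -0.64.

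CCNA1, the cyclin of meiosis that is also found in leukaemia cells, had 9.29, 9.16 and 9.27 with HS5, against 10.09, 10.06 and 9.88 with Ara-C alone (log2 difference -0.77, SE 0.12, adjusted p = 0.0129). PHACTR3, which binds actin and protein phosphatase, had 9.04, 9.03 and 8.95 with HS5, against 9.71, 9.60 and 9.71 with Ara-C alone (-0.67, SE 0.08, adjusted p = 0.00216), with -0.81 for a second probe. Neither gene's groups overlap. LTB, a membrane-bound lymphotoxin, had 8.94, 8.99 and 9.13 with HS5, against 9.62, 9.66 and 9.70 with Ara-C alone (-0.64, SE 0.11, adjusted p = 0.0168), but its other probe gave -0.34 (adjusted p over all probes 0.613). COL17A1, a collagen of epithelial anchoring structures, fell by 0.81, NLN, a peptidase, by 0.75, TCEAL4 by 0.72 and PSCD4, now called CYTH4, an exchange factor for Arf proteins in blood cells, by 0.68 on the log2 scale. EEF1A2, a translation factor, was detected on 0 HS5 arrays and on 1 of 3 arrays of Ara-C alone (fitted -0.74, which is no bound), and SNORD48, a small nucleolar RNA, fell by 0.66. The calls of COL17A1, CCNA1, NLN, EEF1A2, TCEAL4, PSCD4, SNORD48 and LTB were each lost without 1 array or more, with adjusted p over all alternatives up to 0.157, or up to 0.212 for LTB. ITGA4, the integrin chain with which blood cells hold on to stroma, had 8.36, 8.51 and 8.10 with HS5, against 8.73, 9.03 and 9.07 with Ara-C alone (-0.62, SE 0.12, adjusted p = 0.0360). It was the 1 called gene of 31 measured for adhesion and homing, where 0.376% of all genes were called lower. Its call was lost in 7 of 13 alternatives (adjusted p up to 0.127), with the replicate number as a block, with the 6 arrays alone, with no filter on dim probes and without the second or the third Ara-C array or the first or the third HS5 array.

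Markers of B-lineage precursors held 2 called falls and 0 called rises with HS5 among 22 measured, where 0.376% of all genes were called lower. IGLL1, the surrogate light chain gene of pre-B cells, had 8.07, 8.15 and 8.10 with HS5, against 8.48, 8.65 and 8.68 with Ara-C alone (log2 difference -0.50, SE 0.08, adjusted p = 0.0159). DNTT, the terminal transferase that diversifies antigen receptor genes, had 8.45, 8.62 and 8.57 with HS5, against 9.31, 8.97 and 9.05 with Ara-C alone (-0.56, SE 0.10, adjusted p = 0.0231), while its second probe gave -0.33 (adjusted p over all probes 0.268). Both genes have HS5 arrays below every array of Ara-C alone. The other probes of IGLL1 gave -0.34 and -0.50 (adjusted p over all probes 0.485 and 0.158), and its call was lost in 6 of 13 alternatives (adjusted p up to 0.0762), the fits without the second or the third Ara-C array or the first or the third HS5 array among them. DNTT lost its call in 8 (up to 0.0987), with the replicate number as a block and without any single array other than the second Ara-C array. The list had a median of -0.225, or -0.16 with undetected groups at their bound, and arrays did not overlap for 12 members, 9 lower and 3 higher, where 19.6% of all genes had no overlap. CD79A (-0.34, adjusted p = 0.157), the signalling chain of the B-cell receptor, did not pass. The signals of the 22 genes summed to 5426 to 5793 with HS5, 10670 to 10930 with HS, 6464 to 6748 with Ara-C alone and 9686 to 10190 in untreated cells. The HS5 arrays therefore held the lowest sums of the 4 groups. Bright genes weigh most in these sums, which were taken without the log, so they do not stand for the 22 genes singly. Against Ara-C alone 16 of the 22 were fitted below 0 and 6 above. Of 11 measured HLA class II genes 0 were called, with a median of -0.231.

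Genes of DNA replication, the checkpoint and cell death, processes on which cytarabine acts, held few called members, where 0.905% of all genes were called. At that share, counts of 0 in lists of this size are no result about these processes. Of 21 measured p53 targets 0 were called, with a median of -0.02, and CDKN1A, the cell cycle inhibitor that p53 induces, had 11.09, 10.70 and 10.93 with HS5, against 10.58, 10.67 and 10.94 with Ara-C alone. These arrays overlap, and the difference was 0.18 (95% confidence interval -0.13 to 0.49, adjusted p = 0.647). Among 45 genes of DNA replication (median -0.028) and 38 of mitosis (median -0.025) 0 were called. All 9 measured replication-dependent histones were fitted below 0, with a median of -0.405, and 0 were called, HIST2H2AA3 (-0.59, adjusted p = 0.0602) coming nearest. Second probes gave -0.09 for HIST2H2AA3, -0.10 for HIST1H2BD and -0.41 for HIST1H2BK. DCK, the kinase that activates cytarabine, had a difference of 0.06 (interval -0.18 to 0.30), CDA, the deaminase that inactivates it, 0.18 (interval -0.29 to 0.66), and its carrier SLC29A1 -0.15 (interval -0.39 to 0.09). The survival genes BCL2 (-0.11, interval -0.37 to 0.16), MCL1 (0.19, interval -0.08 to 0.45), BCL2L1 (-0.26, interval -0.47 to -0.04) and BIRC5 (-0.28, interval -0.49 to -0.06) were not called, and of 17 anti-apoptotic genes PIM1 was the 1 called. A second probe of BIRC5 gave -0.05 (adjusted p over all probes 0.937). For BCL2 and MCL1 a second probe gave -0.28 and 0.26 (adjusted p over all probes 0.284 and 0.5). SAMHD1, which breaks down the active form of cytarabine, was detected on 0 of 12 arrays.

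The title of the series names the Wnt pathway, in which secreted ligands stabilise beta-catenin and turn on genes together with LEF1 and related factors. Of 19 measured Wnt and beta-catenin targets 0 were called between HS5 and Ara-C alone (median 0.013), of 14 ligands, receptors and secreted regulators 0 (median -0.034), and of 30 intracellular components 0 (median -0.027). As 0.905% of all genes were called, such counts of 0 are near the share over all genes. LEF1 had 7.02, 6.84 and 6.79 with HS5, against 6.97, 7.24 and 7.46 with Ara-C alone, overlapping arrays with a difference of -0.34 (interval -0.60 to -0.09, adjusted p = 0.226). CTNNB1, the beta-catenin gene, had -0.12 (interval -0.39 to 0.15), MYC -0.29 (interval -0.53 to -0.06, adjusted p = 0.261) and CCND1 0.05 (interval -0.21 to 0.31). Other probes of CTNNB1 gave 0.36 and -0.13 (adjusted p over all probes 0.422 and 0.72), so its probes differed in sign. For LEF1 and MYC a second probe gave -0.53 and -0.29 (adjusted p over all probes 0.158 and 0.456). TLE1, a co-repressor that LEF1 can bind, had 4.83, 4.74 and 5.03 with HS5, where it was not detected, against 5.65, 5.62 and 5.83 with Ara-C alone, and stood just short of a call (fitted difference -0.83, which is no bound, SE 0.18, adjusted p = 0.0506). AXIN2, a feedback target of the pathway, was detected on 2 of 12 arrays and not tested.

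**Figure D5:**
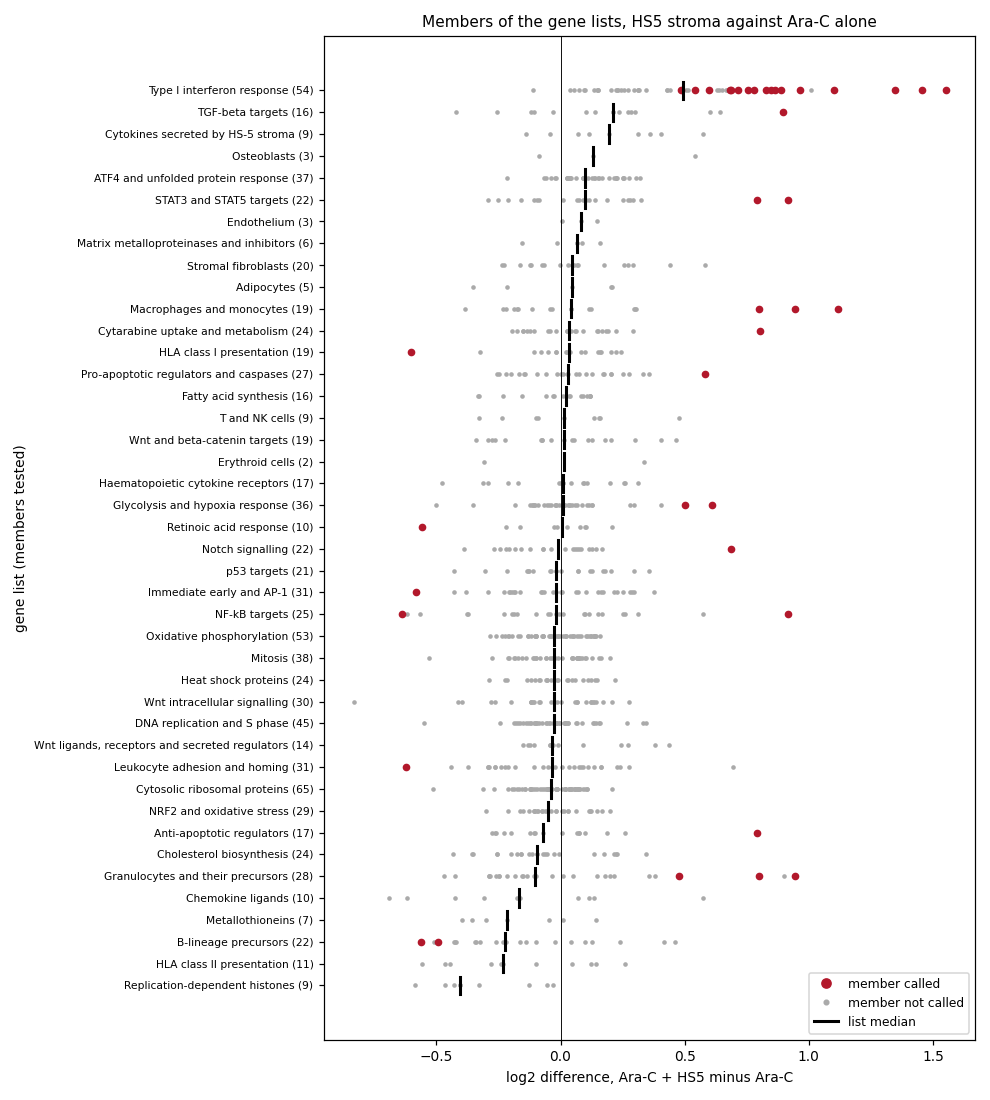
Log2 difference between Ara-C with HS5 and Ara-C alone (horizontal axis) for every tested member of the 42 gene lists (vertical axis, number of tested members in brackets), with called members in red, others in grey and list medians as black bars. The interferon list holds 17 called members and has a median of 0.49; the next highest median is 0.21, of the TGF-beta targets, with 1 called member.

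Among the remaining lists, ATF4 and unfolded protein response genes were fitted above 0 for 31 of 37, with 0 called and a median of 0.10, and SLC7A5, an amino acid carrier, was the nearest to a call (0.27, adjusted p = 0.148). Of 25 NF-kB targets BCL3 was called higher and LTB lower. SPRY1, a brake on growth factor signalling, fell by 0.58 (adjusted p = 0.0167) as the 1 called of 31 immediate early genes, and DHRS3, an enzyme of retinoid metabolism, by 0.56 (adjusted p = 0.0485) as the 1 called of 10 retinoic acid genes. DHRS3 kept its call in 2 of 13 alternatives and lost it with the authors' deposited values and without any 1 array (adjusted p up to 0.155), and SPRY1 lost its call in 5, all of them single arrays left out other than the second HS5 array (up to 0.0814). BHLHB2 was the 1 called of 16 TGF-beta targets. Of 10 chemokine ligands 0 were called, with CCL3L1 (-0.69, adjusted p = 0.0620) and CCL3 (-0.62, adjusted p = 0.116) lowest. The list of 16 fatty acid synthesis genes, 24 of cholesterol synthesis, 24 heat shock genes, 29 NRF2 genes, 7 metallothioneins, 53 genes of oxidative phosphorylation, 65 ribosomal proteins, 6 metalloproteinases and inhibitors, and the markers of T and NK cells (9), endothelium (3), adipocytes (5), osteoblasts (3) and erythroid cells (2) held 0 called genes.

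Set directly against HS stroma, with Ara-C in both groups, HS5 cells differed in 4826 genes (43.2%), 2333 higher and 2493 lower with HS5. EMP1, an epithelial membrane protein gene, had 9.17, 8.97 and 9.16 with HS5 and was detected on 0 of 3 HS arrays, at least 11.3-fold higher with HS5 (adjusted p = 5.75e-11). CXCL10 was at least 10.7-fold higher, S100A8 at least 9.11-fold and GZMA, a granzyme gene of cytotoxic cells, at least 8.04-fold. CYTL1, a secreted protein of blood progenitors, averaged 12.24 ± 0.06 with HS5 and 8.33 ± 0.25 with HS (SD, n = 3 each), 15.1-fold higher, and ASGR2, a lectin receptor, was 13.6-fold higher. On the other side VPREB3, of the pre-B cell receptor, was at least 8.28-fold lower with HS5, and MME, the gene of a surface marker of early B cells, at least 3.52-fold. PPP1R1B, a phosphatase inhibitor detected on 1 of 3 HS5 arrays, DHRS3, the fructose carrier gene SLC2A5 and PRAM1 had log2 differences of -2.58, -2.41, -2.41 and -2.35. Of these 12 genes S100A8, DHRS3 and SLC2A5 were also called between HS5 and Ara-C alone, with -0.56 for DHRS3 and -0.51 for SLC2A5, both lost without any 1 array (adjusted p over all alternatives up to 0.155 and 0.148). Of 22 B-lineage markers 17 were lower with HS5 than with HS and 1 higher.

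Against untreated cells, HS5 cells under Ara-C differed in 6263 genes (56.1%), and cells under Ara-C alone in 5786 (51.8%), comparisons that share the untreated arrays. CDKN1A averaged 10.91 ± 0.20 with HS5, 10.73 ± 0.19 with Ara-C alone and 6.10 ± 0.03 in untreated cells (SD, n = 3 each). For DUSP3, a phosphatase picked after its values were seen, the order was different, with 9.46, 9.78 and 9.51 with HS5, 8.71, 8.67 and 8.77 with Ara-C alone and 9.33, 9.42 and 9.37 in untreated cells. HS5 was thus 0.86 above Ara-C alone (SE 0.11, adjusted p = 0.00286) on the log2 scale. HES1 too was lowest with Ara-C alone among these 3 groups, but highest in untreated cells. It averaged 6.50 ± 0.22 with HS5, 5.81 ± 0.19 with Ara-C alone and 6.74 ± 0.16 in untreated cells. Its mean with Ara-C alone is near the lowest signal among detected probes, 5.61 to 5.76 on those arrays.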

How the data were processed

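RNA of 12 samples was measured on Illumina HumanHT-12 v3 arrays. The deposited scanner tables hold an intensity and a detection p-value per probe, not normalized, per the file headers. The authors' deposited value table holds log2 intensities, which matched quantile-normalized scanner values within 0.000167, and R 2.9.2 is named in the submitters' processing notes. From the intensities, neqc (limma 3.58.1, R 4.3.3) corrected background with the negative-control level inferred from the detection p-values, added an offset of 16, quantile-normalized and took log2. Of 48800 probes, 14939 with a detection p under 0.01 on 3 or more arrays were kept, 475 of them without a usable symbol, and the brightest probe stood for each of 11166 genes. One limma model over all 12 arrays (lmFit, eBayes, Benjamini-Hochberg, threshold 0.05) gave all differences. "At least" marks a gene not above background on every array of 1 group. Its fold is the brighter group's mean against the higher, on each array, of its own signal and the lowest signal among detected probes.

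The labels call the samples independent triplicates. Same-numbered samples did not deviate together (correlations of -0.033, 0.001 and -0.011), so numbers were not used as pairs. The genes plotted by array are the 12 largest called changes each way, and further genes were named from the lists or, where stated, after their values were seen. The members and the 42 lists were chosen with earlier results of these data known. Alternatives were the authors' values, other normalization, filters and probe rules, 6 arrays alone, a replicate block and each array left out. The fits were tested on simulated data. Promoters come from RefSeq (GRCh38.p14), read with Python 3.11.15. Single values of some genes that enter the fits and counts are not reported here.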

Additional observations from a re-analysis of the deposited data

Results flagged for a closer look

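For 22 of the 24 genes with the largest called changes between HS5 and Ara-C alone, the 2 stromal groups differed in a test of HS5 against HS itself (limma, Benjamini-Hochberg over all genes), while the effect of each stroma was measured against the same Ara-C arrays. Of all genes, 43.2% were called between HS5 and HS, and the 24 were chosen on the same HS5 arrays, so the count is a description. Among the rises, the log2 difference of HS5 minus HS was 3.63 for IFI27, 1.23 for MUC1, 3.05 for OAS2, 1.53 for SLC12A8, 1.5 for IFI44L, 3.47 for AIM2, 1.88 for CD14, 3.05 for OAS3, 2.43 for OASL, 3.84 for S100A8 and 0.75 for BCL3. BHLHB2 was lower with HS5 than with HS, at -0.44 (adjusted p = 0.0351). Against Ara-C alone, AIM2 stood at 1.34 with HS5 and -2.13 with HS, OAS3 at 1.1 with HS5 and -1.95 with HS, and MUC1 at 1.49 with HS5 and 0.26 with HS.

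Among the falls, HS5 minus HS was -2.06 for PLS3, -0.82 for FBP1, 1.75 for COL17A1, 2.72 for CCNA1, -0.43 for NLN, -1.63 for EEF1A2, -1.46 for TCEAL4, -1.48 for PSCD4, 0.4 for PHACTR3 and 0.83 for LTB. CCNA1 stood at -0.77 with HS5 and -3.49 with HS against Ara-C alone, and PLS3 at -1.27 with HS5 and 0.79 with HS. Fitted sizes are no bounds for IFI27, SLC12A8, IFI44L, AIM2, OASL and S100A8, which were below background with HS, or for PLS3, FBP1 and EEF1A2, which were below background with HS5.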

How the results depend on the processing

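Of the 101 genes called between HS5 and Ara-C alone, 22 kept their call in all 13 alternatives, 20 higher and 2 lower with HS5, and 9 of the 22 are on the interferon list. None of the 101 changed sign in those alternatives. The authors' deposited log2 values gave 205 calls (114 higher, 91 lower) and 27 called interferon genes. The 6 arrays alone gave 62 (42 higher, 20 lower), a fit with the replicate block 58 (39 higher, 19 lower), and no filter on dim probes 70 (47 higher, 23 lower). A further threshold of 1.5-fold left 59 (41 higher, 18 lower). Leaving out 1 array gave 28 to 50 genes (24 to 37 higher, 4 to 13 lower) and 10 to 13 interferon genes. The causes were not tested. Leaving out an array also lowers the number of arrays, and the 2 cannot be told apart here. Counts for HS5 against HS stayed between 4232 and 4360 without 1 array. Fitted differences of genes below background in 1 group are not bounds, and 3 arrays a group limit what can be called.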
